A study of Mus musculus with 18 samples.

Results

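The cytosolic ribosomal protein genes encode the proteins that, with the ribosomal RNAs, make up the 2 subunits of the cytoplasmic ribosome. They were taken by symbol from the gene tables of both tissues, as every gene named Rpl or Rps with a number. The stalk genes Rplp0, Rplp1 and Rplp2 and the laminin-receptor ribosomal protein gene Rpsa were added. Pseudogenes marked -ps in the symbol and the Rps6k kinases were left out. That gave 83 genes in each table, out of 17513 genes in the heart table and 17242 in the liver table: 48 of the large subunit, 32 of the small subunit and 3 of the stalk. Heart endothelial cells came from wild-type adult male mice at rest, in 3 libraries from each of 4 regions, labelled Apex, LV, VS and OR without further detail. Liver endothelial cells came from adult male mice that carry Ki67-CrexER, Cdh5-DreER and R26-RL-tdT, in 3 libraries of tdTomato-positive cells and 3 of tdTomato-negative cells. All 6 liver libraries therefore carry the same 3 alleles. Cdh5-DreER puts the recombinase Dre under the gene of the endothelial cadherin, Ki67-CrexER puts a Cre that is silent until Dre acts on it under the gene of the proliferation protein Ki67, and R26-RL-tdT is the tdTomato reporter. Unmarked cells therefore include any in which recombination did not take place. The labels give no animal number, so p-values measure the spread between these libraries, which may be technical.

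Each ribosome needs 1 copy of nearly every one of these proteins, and the stalk protein P0 carries dimers of P1 and P2 that recruit translation factors. Their messenger RNAs are short and abundant, and most begin with a run of pyrimidines at the cap (the 5′ terminal oligopyrimidine tract), through which mTORC1, the growth-sensing kinase complex, and the RNA-binding protein Larp1 set how actively they are translated. Their transcription depends on promoter factors of the Ets family, on YY1 and, in growing cells, on Myc. A few members have close relatives that can take their place in particular tissues, such as Rpl3l for Rpl3 in heart and skeletal muscle and Rpl22l1 for Rpl22.

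The start regions of 8 members are shown because the tract at the cap is the feature that the family is known for, and because the last 4 are relatives or outlying members whose values differ from the rest below. Each sequence runs from 30 bases before to 20 bases from the RefSeq start, on GRCm38.p6, with the coordinates of the printed stretch, and capitals mark an unbroken run of at least 8 C or T letters that touches the window from 10 before to 20 after that start. A run was capitalised only where it lies in the printed stretch.
Rpl27a (chr7:109519165-109519214, strand +): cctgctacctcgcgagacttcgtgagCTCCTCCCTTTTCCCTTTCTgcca
Rpl35 (chr2:39005112-39005161, strand -): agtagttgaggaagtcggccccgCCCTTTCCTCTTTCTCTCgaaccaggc
Rps18 (chr17:33955646-33955695, strand -): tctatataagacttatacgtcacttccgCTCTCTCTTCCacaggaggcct
Rpl38 (chr11:114668550-114668599, strand +): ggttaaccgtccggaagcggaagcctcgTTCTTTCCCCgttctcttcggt
Rpl22l1 (chr3:28805478-28805527, strand +): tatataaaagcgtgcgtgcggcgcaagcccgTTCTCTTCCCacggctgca
Rps27l (chr9:66946056-66946105, strand +): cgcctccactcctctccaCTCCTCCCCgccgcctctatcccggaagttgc
Rpl3l (chr17:24727796-24727845, strand +): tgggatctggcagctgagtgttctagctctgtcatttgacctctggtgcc
Rpl7l1 (chr17:46782637-46782686, strand -): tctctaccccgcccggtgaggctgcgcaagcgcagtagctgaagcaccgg
RefSeq windows of 300 bases (250 before and 50 after a start) were found for 63 of the 83 members, in 75 windows. Such a run was present in 33 of the 75 member windows (44.0%), beside 16.9% of all 32851 windows in the table. The letters CCGGAAG, a core that Ets-family factors are known to bind, stood on either strand in 27 member windows (36.0%), beside 8.86% of all windows, and AAGATGGC, a YY1 core, in 8 (10.7%), beside 2.75%. The printed windows of Rpl3l and Rpl7l1 hold no such run, while those of Rpl22l1 and Rps27l hold 1 each. The run of Rps27l ends before the annotated start, so it would not be part of a message from that start. A further RefSeq window of Rps27l had a longest run of 4.

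Depth was similar in all 18 libraries, at 21590400 to 27720154 expected counts in heart and 23715769 to 26538590 in liver. The 10 endothelial markers fixed for the check, among them Pecam1, Cdh5 and Kdr, were detected in every library, at a mean log2 CPM of 10.1 to 10.3 in heart and 9.66 to 9.86 in liver. Cardiomyocyte genes were present too: none of the 15 on that list was at 0 in a heart library, and their summed level was 1492 to 1937 CPM in Apex, 1650 to 2069 CPM in LV, 865 to 4167 CPM in VS and 2103 to 2676 CPM in OR. VS 1 stood apart in heart as the library with the lowest cardiomyocyte level and VS 2 as the one with the highest. In liver, the tdTomato-negative library 3 stood apart, with 4537 CPM summed over 7 Kupffer cell markers, against 42.2 and 80.5 CPM in the other negative libraries and 785 to 1561 CPM in the positive ones. The region titled OR is named OZ in the column names and the design text, and both names are read as 1 region.

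Per length, ribosomal protein messages were among the most abundant in these endothelial cells. The median member had a mean of 1040 TPM over the 12 heart libraries and 1158 TPM over the 6 liver libraries, against a median over all genes in the table of 5.63 TPM in heart and 6.36 TPM in liver. Members took 25 of the 100 highest places in heart and 31 of 100 in liver. The heart order began with Rpl41, which encodes the shortest ribosomal peptide, at 5254 TPM, then Rps27, a zinc-finger protein of the small subunit, at 4965 TPM, and Rpl13, a large-subunit protein, at 4770 TPM, followed by Rpl32 at 3382 TPM. In liver the order was Rps27 at 8776 TPM, Rpl13 at 5007 TPM, Rpl41 at 4731 TPM, Rps23, a protein of the decoding centre, at 4310.0 TPM and Rps18 at 3992 TPM. The first places in heart overlapped between libraries. Rpl41 had 3630.1, 4804 and 5329 TPM in the Apex libraries, 5487, 4562 and 6620.4 TPM in LV, 4185, 5914 and 6099 TPM in the VS libraries and 4907, 5270.1 and 6239 TPM in OR. Rps27 had 3468, 3896 and 4299 TPM in the Apex libraries, 5429, 5538 and 6319 TPM in LV, 3463, 6587 and 5648 TPM in the VS libraries and 4554, 4178 and 6204 TPM in OR. Rps27 was the higher of the pair in LV 2 and VS 2, and Rpl41 in the other 10 libraries. Of the 10 highest members, 8 were the same in both tables.

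The low end held relatives of core members. Rpl39l, a relative of the exit-tunnel protein gene Rpl39 known from mouse testis, averaged 0.468 TPM in heart and 0.723 TPM in liver. Rpl32l averaged 7.78 TPM in heart and 8.88 TPM in liver, and was the member not matched to 1 protein-coding gene of that symbol in GENCODE M21. Rpl39l did not pass the low-count filter in either tissue, so 82 members were tested in heart, and Rpl3l did not pass it in liver either, which left 81. Rps6, the small-subunit protein that S6 kinase phosphorylates, was also low, at 53.5 TPM in heart and 50.5 TPM in liver, and Rps15a was at 46.8 TPM in heart. These levels depend on how the authors' counting shared reads and set lengths. Counts that were not whole, the mark of reads shared between genes, occurred in 41 members in heart and 31 in liver, Rps6 and Rps15a among them, and the values imply an effective length of 5416 bases for Rps15a. Differences between members at this end are therefore uncertain.

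**Figure D1:**
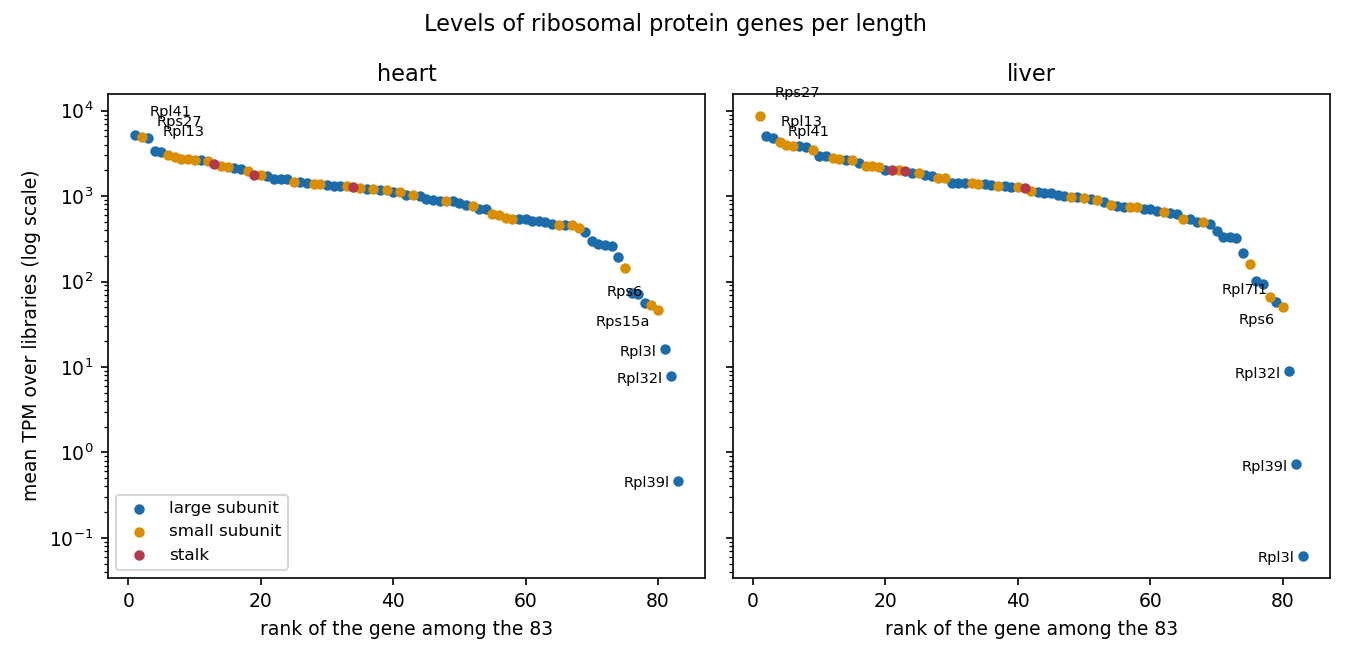
Mean TPM (log scale) of the 83 ribosomal protein genes over the 12 heart libraries (left) and the 6 liver libraries (right), ranked from the highest, with points coloured by subunit. Rpl41, Rps27 and Rpl13 lead in both tissues, and Rpl39l, Rpl32l and Rpl3l lie far below the rest.

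Taken as 1 sum, the 83 genes held 2.74%, 2.74% and 2.84% of all counts in Apex, 3.11%, 2.90% and 3.43% in LV, 1.94%, 4.02% and 3.86% in the VS libraries and 4.02%, 3.43% and 4.23% in OR. All 3 Apex libraries were below all 3 OR libraries, and the Apex libraries lay close together. Within VS the shares differed 2.07-fold between libraries 2 and 1, more than between any pair of region means. In liver the sum was 3.24%, 3.78% and 3.69% in the tdTomato-positive libraries, against 5.19%, 4.91% and 3.09% in the tdTomato-negative libraries. Negative libraries 1 and 2 were above all positive libraries, and negative library 3 was below all of them. In TPM, which gives short genes more weight, the family held 9.35% to 9.58% in Apex, 10.1% to 11.7% in LV, 7.25% to 12.3% in the VS libraries and 10.6% to 12.7% in OR, and 10.6% to 12% in tdTomato-positive against 10.6% to 15.8% in tdTomato-negative libraries. In bulk RNA, fewer cells of a type and less RNA per cell cannot be told apart.

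**Figure D2:**
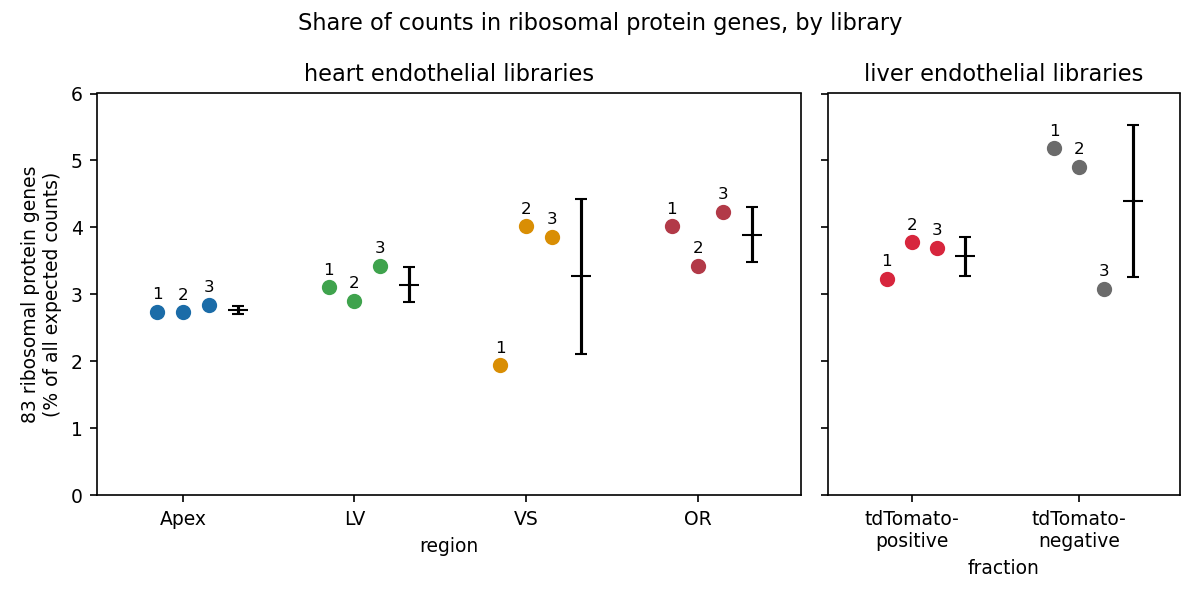
Share of all expected counts (%) in the 83 ribosomal protein genes, per library, by heart region (left) and liver fraction (right), with the replicate number above each point and the mean ± SD of 3 libraries at its side. The Apex libraries lie between 2.74% and 2.84%, all below the OR libraries, and VS 1 and tdTomato-negative 3 lie far from the other libraries of their groups.

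With all 12 libraries, the widest regional difference in the family was between Apex and OR. Every one of the 82 tested members had a log2 fold change below 0 (Apex over OR), beside 49.8% of all 13542 genes tested, and the median was -0.57, beside 0.00 over all genes. In 76 members all 3 Apex libraries were below all 3 OR libraries, which held for 15.6% of all genes. In edgeR's quasi-likelihood fit of all 12 libraries, however, 0 members and 0.0% of genes passed an adjusted p of 0.05. At an unadjusted p under 0.05 there were 57 members, beside 12.1% of all genes. DESeq2 called 0 members (0.214% of genes) and limma's voom with sample weights called 71, all lower (12.8% of genes, 7.22% lower). When edgeR was fitted to the 6 Apex and OR libraries alone, 63 members fell, beside 4.26% of all genes called lower and 7.30% called in either direction. That count was 0 without Apex 2 and 0 without OR 3, and between 38 and 63 without each of the other libraries. Shares of all genes called in these leave-outs are not reported here, so their counts cannot be set against other genes. With VS 1 left out of the 12-library fit, 67 members fell (6.25% of genes called, 3.87% lower).

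Among the members with the largest differences was Rps14, a small-subunit gene whose loss of 1 copy underlies a human anaemia. It had 508, 505 and 601 CPM in Apex, against 899, 802 and 982 CPM in OR, and the groups did not overlap. Its log2 fold change was -0.73 ± 0.25 (SE) in the fit of 12 libraries, with an edgeR adjusted p of 0.376. In the pair alone the same edgeR test gave -0.72 ± 0.11, with an adjusted p of 0.0128. At the other end, Rpl7l1, a relative of Rpl7 known from ribosome assembly, had 99.4, 77.7 and 71.6 CPM in Apex, against 98.1, 78.97 and 85.6 CPM in OR, and these groups overlapped (log2 fold change -0.08 ± 0.18). Rpl4 and Rpl23, both of the large subunit, were next, at -0.24 ± 0.17 and -0.30 ± 0.18.

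By role, all 3 stalk genes were lower in Apex. Rplp0 had 1559, 1440.0 and 1571 CPM in Apex, against 2138, 1925 and 1938 CPM in OR. Rplp1 had 224, 217 and 218 CPM in Apex, against 339, 298 and 349.9 CPM in OR. Rplp2 had 132, 150.5 and 156 CPM in Apex, against 213, 194 and 236 CPM in OR. None of the 3 overlapped, and their log2 fold changes were -0.39, -0.58 and -0.55. Each of them fell in the fit of the pair alone, with edgeR adjusted p of 0.0453, 0.0128 and 0.0176. Rpl5 and Rpl11, which form the 5S particle that binds Mdm2 when ribosome assembly fails, were lower in Apex too. Rpl11 had 230.5, 238 and 246 CPM in Apex, against 398, 332 and 411 CPM in OR (log2 fold change -0.68 ± 0.21). Rpl5 had 159.8, 146 and 172 CPM in Apex, against 220.0, 182 and 246 CPM in OR (-0.44 ± 0.17). Rpl11 fell in the pair alone (edgeR adjusted p 0.0128), and Rpl5 did not pass there (0.0564), a contrast that was not tested as a difference between the 2 genes.

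Of the remaining members with a fixed role, Rps27a, which makes ubiquitin fused to a ribosomal protein, had 282, 276 and 335 CPM in Apex, against 458, 413 and 531 CPM in OR. Rps19, the gene most often mutated in human Diamond-Blackfan anaemia, had 469, 458 and 523 CPM in Apex, against 815, 703 and 828 CPM in OR. Both were lower in every Apex library. Rps3, which lies at the mRNA entry site, had 561, 509 and 569.6 CPM in Apex, against 817, 734 and 842 CPM in OR. Rpl10, a protein that joins late in assembly, had 639, 578 and 665 CPM in Apex, against 898, 841 and 928 CPM in OR. All 4 were lower in every Apex library than in any OR library, and all 4 fell in the pair alone, with log2 fold changes of -0.64, -0.68, -0.53 and -0.49. Rpsa, which also serves as a laminin receptor, fell, at -0.43 ± 0.09 (edgeR adjusted p 0.0194), as did the peptidyl-transferase-centre gene Rpl3, at -0.35 ± 0.09 (0.0477). Rps6 (-0.31 ± 0.10, 0.0818), Rpl39 (-0.61 ± 0.17, 0.0671) and Rpl41 (-0.53 ± 0.17, 0.108) did not pass in the pair alone.

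**Figure D3:**
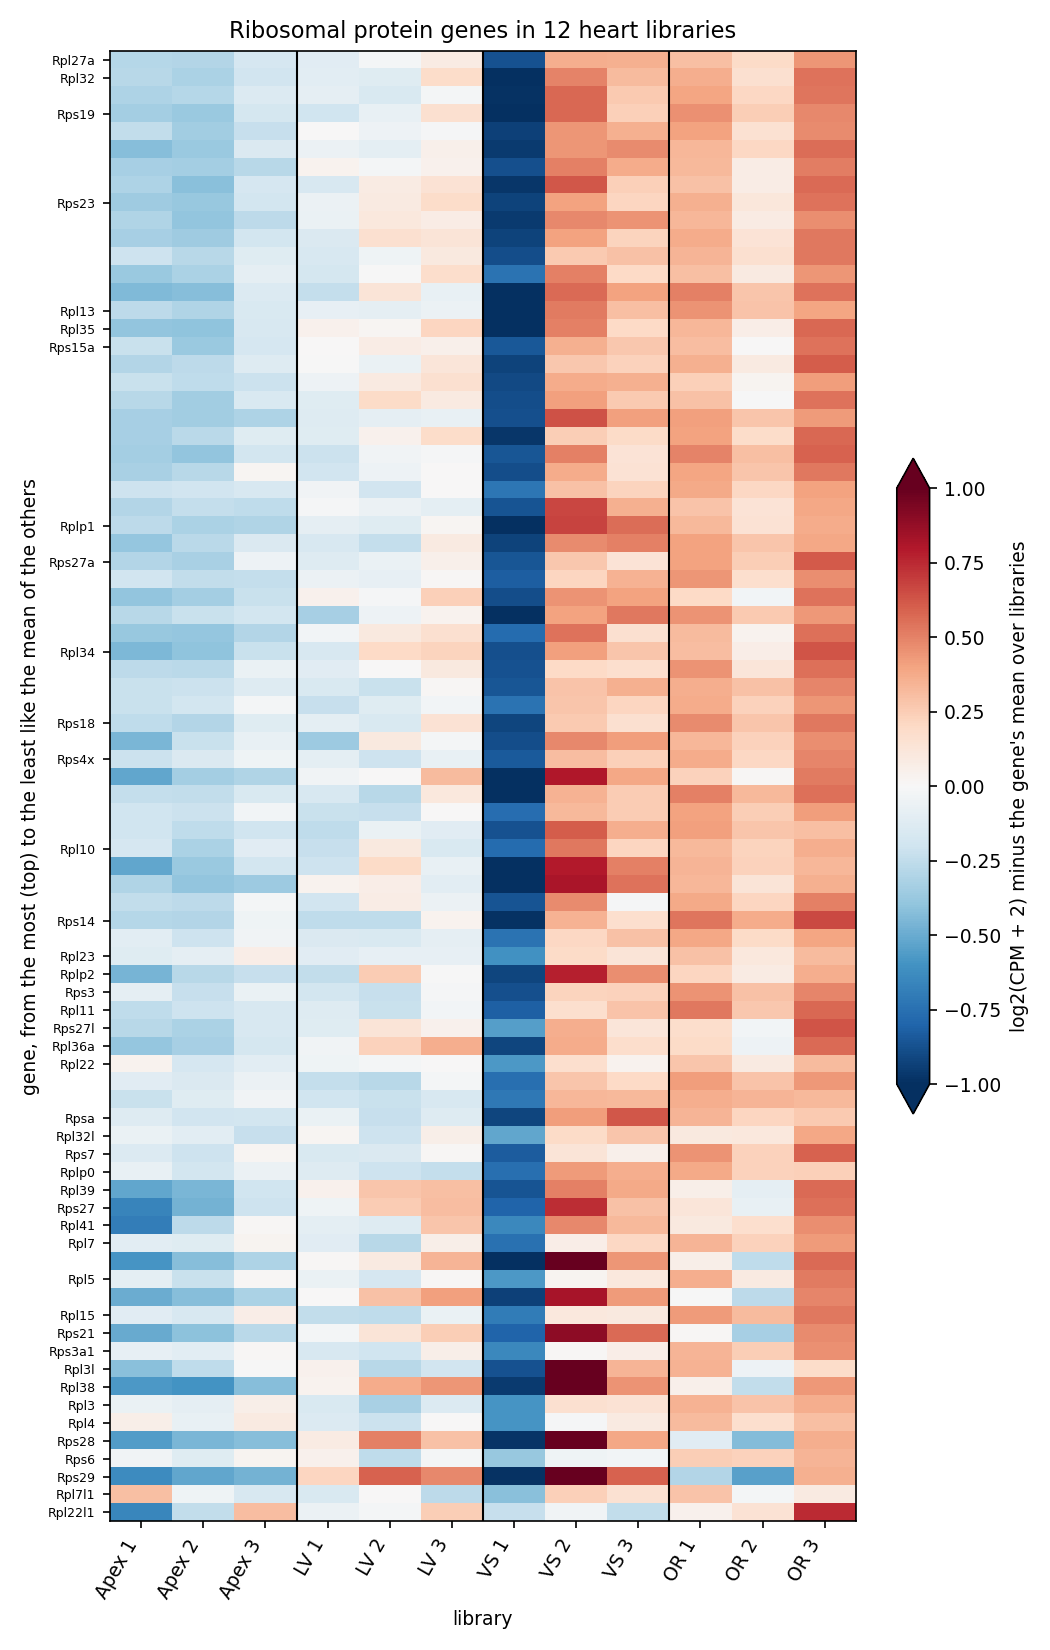
Log2(CPM + 2) of the 82 tested ribosomal protein genes (rows) in the 12 heart libraries (columns), minus each gene's mean over the libraries, with rows ordered from the gene most like the mean of the others to the least and genes named in the text labelled. Nearly all rows are low in VS 1 and in Apex and high in OR, while Rps29 and Rps28 near the bottom are high in LV and low in OR 2.

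Apex was lower than LV in most members, by less than it was lower than OR. The median member log2 fold change (Apex over LV) was -0.21, beside -0.01 over all genes, and 69 of 82 members were below 0 (51.7% of genes). With all 12 libraries edgeR called 0 members (0.0% of genes; 3 members at an unadjusted p under 0.05, beside 5.38% of genes), and DESeq2 (0.177% of genes) and voom (0.244%) called 0 as well. In the pair alone 3 members fell, beside 0.121% of all genes called lower and 0.152% called in either direction. These were Rps29, Rps28 and Rpl38, small proteins of either subunit; Rpl38 is known in mouse for its part in translating Hox messages. Rps29 had 143, 154 and 159 CPM in Apex, against 258, 334 and 310.1 CPM in LV, a log2 fold change of -0.98 ± 0.12 in the pair alone (edgeR adjusted p 0.0133). Rpl38 had 37.3, 36.9 and 41.7 CPM in Apex, against 58.2, 73.9 and 77.9 CPM in LV, at -0.85 ± 0.13 (0.0346). Rps28 had 96.3, 104 and 106 CPM in Apex, against 152, 204 and 176 CPM in LV, at -0.79 ± 0.12 (0.0346). In each of the 3, every Apex library was below every LV library, as in 34 members in all (8.80% of genes). Leaving out 1 library gave between 0 and 2 called members, with 0 without Apex 2 and 0 without LV 3, and the shares of all genes there are not reported here. Rpl7l1, Rpl3 and Rpl4 were on the other side of 0, at 0.18 ± 0.18, 0.17 ± 0.18 and 0.14 ± 0.17. Rpl3 was the 1 member with every Apex library above every LV library, at 889, 874 and 969 CPM in Apex, against 839, 744 and 845 CPM in LV.

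Between LV and OR most members were lower in LV, in all classes of length. The median log2 fold change (LV over OR) was -0.38, beside 0.00 over all genes, and 76 members were below 0 (49.6% of genes). Rps29, Rps28 and Rpl38 were among the exceptions. Rps29 had 258, 334 and 310.1 CPM in LV, against 181, 152 and 284 CPM in OR (log2 fold change 0.55 ± 0.39). Rps28 had 152, 204 and 176 CPM in LV, against 132, 105 and 184 CPM in OR (0.33 ± 0.40). Rpl38 had 58.2, 73.9 and 77.9 CPM in LV, against 58.7, 47.4 and 77.4 CPM in OR (0.19 ± 0.36). The groups overlapped in each, and none passed. Members far below 0 included Rpl15, a core protein of the large subunit, with 583, 579 and 659.7 CPM in LV, against 931, 862 and 996 CPM in OR. Rpl3 had 839, 744 and 845 CPM in LV, against 1182, 1134 and 1198 CPM in OR. In both, every LV library was below every OR library, as in 52 members in all (14.6% of genes). The edgeR fit of 12 libraries called 0 members (0.0% of genes; 20 at an unadjusted p under 0.05, beside 11.5%), DESeq2 0 (0.362% of genes) and voom 7 (1.77% of genes, 0.650% lower). In the pair alone 22 members fell, beside 1.73% of genes called lower and 3.53% in all, among them Rps14 (-0.67 ± 0.12, edgeR adjusted p 0.0305), Rpl15 (-0.61 ± 0.11, 0.0305), Rpl11 (-0.59 ± 0.11, 0.0312) and Rpl3 (-0.53 ± 0.11, 0.0375). The count was 12 without LV 2 and 0 without any 1 of the other 5 libraries, with shares of all genes not reported here. With VS 1 left out of the fit of all regions, 31 members fell (2.72% of genes called, 1.47% lower).

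The 3 comparisons with VS rested on VS 1, the library with the smallest ribosomal share. Against VS, Apex had a median member log2 fold change of -0.30, with 70 members below 0 (50.8% of genes), 0 members called by edgeR (0.0% of genes; 6 at an unadjusted p under 0.05, beside 7.47%), 0 by DESeq2 (0.140% of genes), 55 by voom (13.1% of genes, 7.54% lower) and 0 in the pair alone. Without VS 1 the median was -0.61 and 67 members fell, beside 7.33% of genes called lower and 11.7% in all. Rps29 had 143, 154 and 159 CPM in Apex, against 111, 517 and 334 CPM in VS, and its log2 fold change was -1.08 ± 0.40 with all libraries and -1.49 ± 0.25 without VS 1 (edgeR adjusted p 0.00567). Rps28 and Rpl38 followed, at -1.45 ± 0.29 and -1.33 ± 0.20 without VS 1. Rps6, Rpl4 and Rps3a1, a small-subunit protein, did not pass, at -0.01 ± 0.12, -0.02 ± 0.11 and -0.10 ± 0.11. No member had every Apex library below every VS library, beside 3.78% of genes.

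LV against VS had a median of -0.08, with 60 members below 0 (49.5% of genes), 0 with every LV library below every VS library (2.22%), and 0 members called by edgeR (0.0% of genes; 0 at an unadjusted p under 0.05, beside 2.91%), DESeq2 (0.133% of genes) or voom (0.00738%). Without VS 1 the median was -0.39 and 26 members fell, beside 2.91% of genes called lower and 4.45% in all, among them Rplp1 (-0.70 ± 0.11, edgeR adjusted p 0.014) and Rpsa (-0.68 ± 0.11, 0.014). With all libraries the largest differences were in Rpl3l (-0.66 ± 0.41), below 0, and Rpl22l1 (0.24 ± 0.23) and Rpl36a (0.23 ± 0.26), above it. With VS 2 or VS 3 left out instead, the median was 0.11 or 0.03. VS against OR had a median of -0.30, with 73 members below 0 (49.3% of genes), and 0 members called by edgeR (0.0% of genes; 14 at an unadjusted p under 0.05, beside 7.03%), by DESeq2 (0.170% of genes) or by voom (0.0665%). Rps7, of the small subunit, had 256, 501 and 474 CPM in VS, against 624, 538 and 689.9 CPM in OR (log2 fold change -0.59 ± 0.20), and every VS library was below every OR library, as in 12 members (6.68% of genes). Without VS 1 the median was 0.04 and 0 members were called (0.0581% of genes; 18 members at an unadjusted p under 0.05, beside 11.1%). Over all 4 regions together, 0 members were called with 12 libraries (0.0% of genes; 10 at an unadjusted p under 0.05, beside 8.0%), 0 by DESeq2 (0.642% of genes), 75 by voom (20.5% of genes) and 73 without VS 1 (10.8% of genes). VS 1 was left out after its values had been seen, and it differs from the other VS libraries in the family itself, so these values describe 11 libraries.

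Effective length, as the authors' values imply it, moved with several of the regional differences. From the ratio of counts to TPM, the median effective length was 568 bases in members and 2991 bases in tested genes with a value, and 35 members were under 500 bases, against 2.10% of those genes. For Apex over OR, the median log2 fold change of members under 500 bases was -0.63, and that of 176 other genes of the same length was -0.60, with 97.2% of them below 0. At 500 to 1000 bases it was -0.56 in members and -0.46 in 614 other genes. At 1000 to 2000 bases it was -0.45 in 12 members and -0.21 in 2019 other genes, and above 2000 bases -0.44 in 4 members and 0.10 in 7156 other genes. Short members and other short genes thus had close medians, and the medians lay further apart in the longer classes. The 4 members above 2000 bases were Rpl22 (2185), Rpl7l1 (2630), Rps20 (3555) and Rps15a (5416). Effective length depends on how the authors' counting set lengths and may differ from the length of the message in the cells. The gap between members and other genes in the longer classes is therefore uncertain. For Apex over LV the class under 500 bases had medians of -0.34 in members and -0.32 in other genes, and for LV over OR both were -0.27. With LV and OR fitted alone, 5.71% of members and 10.2% of other genes under 500 bases were called lower. At 500 to 1000 bases those shares were 46.7% and 14.7%. Across members, Spearman's rho between length and log2 fold change was 0.73 for Apex over LV, 0.56 for Apex over VS, 0.38 for Apex over OR, -0.05 for LV over VS, -0.54 for LV over OR and -0.39 for VS over OR, over 81 members of the same libraries, which are not independent. In single libraries the other genes under 500 bases had a median deviation from their own means of -0.76 in VS 1 and 0.56 in VS 2. Over the 82 tested members of every length, the same median was -0.89 and 0.41. The part of length in the members' differences was not tested beyond these classes.

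**Figure D4:**
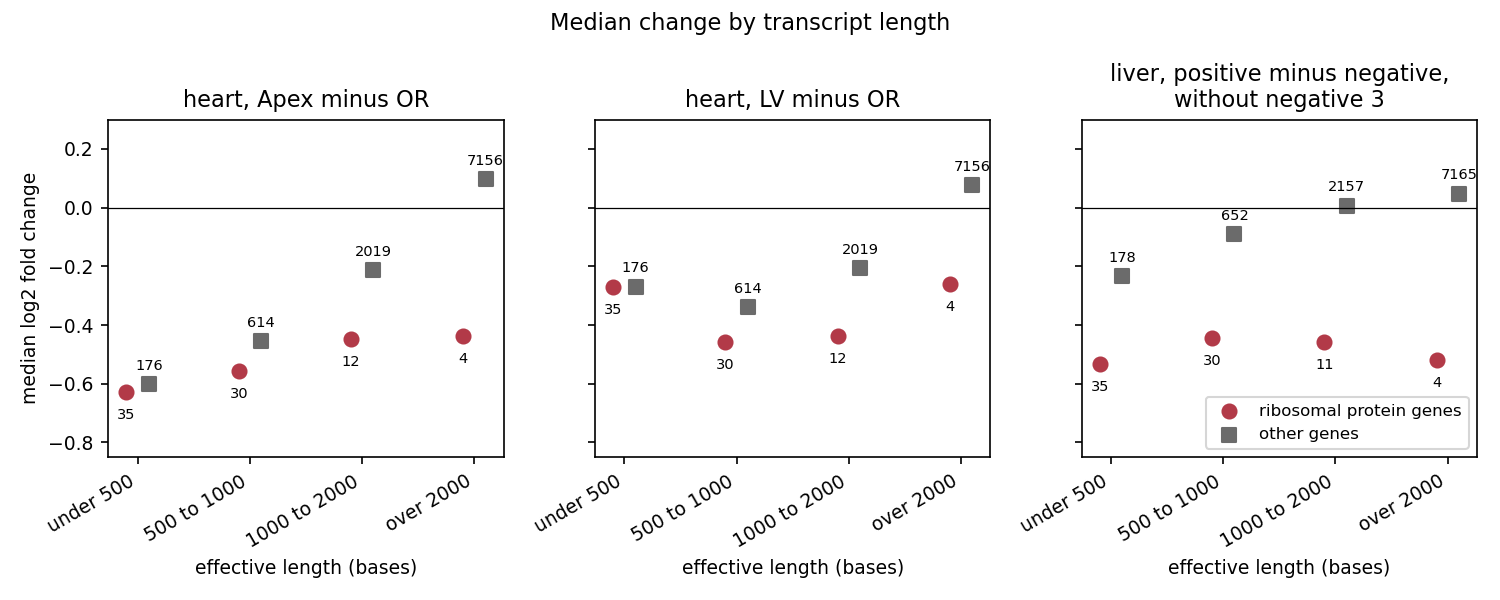
Median log2 fold change by effective length (bases) for ribosomal protein genes (circles) and other tested genes (squares), with the number of genes beside each point, for Apex minus OR, LV minus OR and, without tdTomato-negative library 3, the liver's tdTomato-positive minus tdTomato-negative fraction. In heart the shortest members and the other shortest genes have the same or nearly the same median (-0.63 and -0.60 for Apex minus OR). In the longer classes of both heart panels members lie lower than the other genes. Effective length depends on the authors' counting, so the placing of members in the longer classes is uncertain. In liver every class of members, the shortest included, lies lower than the other genes of its length.

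Relatives of core members were followed across heart beside their partners. Rpl3l, the muscle form of Rpl3, had 7.61, 8.75 and 10.8 CPM in the Apex libraries, 11.2, 8.59 and 9.28 CPM in LV, 5.01, 26.7 and 14.3 CPM in the VS libraries and 14.3, 10.4 and 12.6 CPM in OR. It was lowest in VS 1 and highest in VS 2, as was the summed cardiomyocyte level, and no region pair passed with all libraries; without VS 1, LV was lower than VS (log2 fold change -1.10 ± 0.25, edgeR adjusted p 0.0265). Whether cardiomyocyte RNA contributed was not tested. Rpl22l1 had 26.8, 36.2 and 54.1 CPM in the Apex libraries, 41.5, 42.8 and 51.9 CPM in LV, 36.7, 42.3 and 36.3 CPM in the VS libraries and 44.6, 48.1 and 74.1 CPM in OR. Its partner Rpl22, an RNA-binding protein of the large subunit, had 89.2, 77.3 and 80.8 CPM in the Apex libraries, 84.5, 85.8 and 87.4 CPM in LV, 58.1, 98.2 and 89.5 CPM in the VS libraries and 106, 92.8 and 109 CPM in OR. The lowest and highest Rpl22l1 libraries were Apex 1 and OR 3, and those of Rpl22 were VS 1 and OR 3. Rps27l, a p53 target in human and mouse cells, had 61.6, 59.97 and 66.98 CPM in Apex, against 85.2, 73.9 and 118 CPM in OR, without overlap. Rps27 had 255, 291 and 350.1 CPM in Apex, against 439, 384 and 593 CPM in OR, also without overlap. Neither passed in the pair alone (edgeR adjusted p 0.0644 for Rps27l and 0.0584 for Rps27). Rpl36a did not pass there either (-0.56 ± 0.15, 0.0529), while Rpl7 fell (-0.39 ± 0.10, 0.0363) and Rps4x fell (-0.48 ± 0.10, 0.0246).

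Most members moved together over the 12 heart libraries. The Pearson coefficient of a member with the mean of the others, used here as a measure of likeness without a test, had a median of 0.960, and 64 of 82 were over 0.9; without VS 1 the median was 0.919. The 5 least alike were Rpl22l1 (0.502), Rpl7l1 (0.624), Rps29 (0.702), Rps6 (0.718) and Rps28 (0.756). Outside the family the closest genes included Ndufb11, a subunit of respiratory complex I (0.988), Fau, which encodes a ribosomal protein fused to a ubiquitin-like one (0.988), the prefoldin gene Pfdn5 (0.986), Cyb5a, for cytochrome b5 (0.984), Tmbim4 (0.983), Cox4i1, of cytochrome oxidase (0.982), and Bloc1s1 (0.981), and LOC100862455 and LOC100044627 (both 0.980). Over 8622 other genes with at least 10 CPM the median was 0.0126. Depth, length and cell mixture are shared by these points.

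Other genes of the translation system were set beside the family for Apex over OR. In the pair alone, 3 of 4 ribosomal protein genes outside the symbol rule fell, among them Fau (-0.71 ± 0.11) and the scaffold Rack1 (-0.46 ± 0.09), with edgeR adjusted p of 0.0128 and 0.0155, and Rpl36al was at -0.41 ± 0.13 (0.0918). Of 18 translation factors and other messages with the same kind of 5′ tract, 5 fell and 0 rose, with a median of -0.24; the elongation factor subunits Eef1d and Eef1b2 were lowest (-0.53 and -0.53), and the poly(A)-binding protein gene Pabpc1 was highest (0.29, adjusted p 0.173). Of 25 ribosome biogenesis genes 0 passed (median -0.09). Of 16 genes of mTORC1 and its control of ribosomal protein synthesis, 1 rose, Larp4 (0.47 ± 0.09, adjusted p 0.0176), and 0 fell (median 0.03). Mitochondrial ribosomal protein genes, which serve a separate ribosome, fell in 30 of 78 (median -0.40), and nuclear genes of oxidative phosphorylation in 22 of 26 (median -0.63). The 10 endothelial markers had a median of 0.17 with 1 called, which was lower, and 6 of 15 cardiomyocyte genes fell (median -0.44); their part in the members' values was not tested. All of these medians stand beside 0.01 over all genes, and all counts were 0 in the fit of 12 libraries. In the pair alone the counts stand beside 4.26% of all genes called lower and 7.30% called in either direction. Among genes outside the family, 53.1% of those under 500 bases and 40.7% of those of 500 to 1000 bases were called lower there.

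In liver the question was whether cells that had expressed the proliferation gene, marked by tdTomato, differed from unmarked ones. Most members were lower in the tdTomato-positive libraries than in tdTomato-negative libraries 1 and 2, but not than in negative library 3. The median log2 fold change (positive over negative) was -0.28, beside 0.00 over all genes, and 80 of 81 tested members were below 0 (49.6% of genes). In edgeR's fit of all 6 libraries 0 members passed (0.0% of 13115 genes), and 6 had an unadjusted p under 0.05, beside 14.3% of genes. DESeq2 called 3 members, all lower (5.21% of genes called, 4.45% lower), and voom 18, all lower (20.7% of genes called, 10.5% lower). Every positive library was below every negative library in 4 members, beside 9.91% of genes. Without negative library 3, edgeR called 75 of 81 members, all lower, with a median of -0.49, beside 16.1% of genes called lower and 31.5% called in either direction. Without negative library 1 or 2 instead, 0 members were called and the median was -0.12 or -0.23. Shares of all genes called in those fits are not reported here.

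Short messages were among the members furthest below 0 in liver. Rps29 had 264, 255 and 277 CPM in the tdTomato-positive libraries, against 369, 437 and 332 CPM in the tdTomato-negative libraries. Rpl38 had 66.1, 66.3 and 73.1 CPM in the tdTomato-positive libraries, against 113, 113 and 77.7 CPM in the tdTomato-negative libraries. Rps28 had 194, 208 and 216 CPM in the tdTomato-positive libraries, against 281, 309.8 and 242 CPM in the tdTomato-negative libraries. Every positive library was below every negative library in these 3, negative library 3 included. Their log2 fold changes were -0.52 ± 0.14, -0.56 ± 0.16 and -0.43 ± 0.13 in the fit of 6 libraries, with edgeR adjusted p of 0.276, 0.276 and 0.276. Rps21, a small-subunit protein, had 55.7, 64.01 and 67.5 CPM in the tdTomato-positive libraries, against 107, 101 and 68.7 CPM in the tdTomato-negative libraries (log2 fold change -0.56 ± 0.18), again without overlap. Rps29, Rpl38, Rps28 and Rps21 were the only 4 of 81 members without overlap, beside 9.91% of all genes with every positive library lower. Without negative library 3 the same contrast was -0.62 ± 0.11 for Rps29, -0.73 ± 0.09 for Rpl38 and -0.75 ± 0.10 for Rps21, with edgeR adjusted p of 0.00419, 0.000754 and 0.00135.

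Members with known roles in liver were high in negative libraries 1 and 2. Rplp0 had 1382, 1509 and 1334 CPM in the tdTomato-positive libraries, against 1965, 1741 and 1178 CPM in the tdTomato-negative libraries. Rpsa had 453, 466 and 432 CPM in the tdTomato-positive libraries, against 760.4, 685 and 393 CPM in the tdTomato-negative libraries. In both, negative library 3 was the lowest of all 6. Rps6 had 29.4, 35.9 and 36.9 CPM in the tdTomato-positive libraries, against 51.8, 48.4 and 30.6 CPM in the tdTomato-negative libraries. Rpl5 had 207, 230.4 and 230.0 CPM in the tdTomato-positive libraries, against 285, 280.1 and 178 CPM in the tdTomato-negative libraries. In all 4, negative libraries 1 and 2 were above every positive library and negative library 3 was not. Without negative library 3 their log2 fold changes were -0.41 ± 0.11, -0.69 ± 0.10, -0.57 ± 0.11 and -0.36 ± 0.09, with edgeR adjusted p of 0.0237, 0.0017, 0.00733 and 0.0215. Rps14 (-0.54), Rps19 (-0.50), Rps27a (-0.57), Rpl3 (-0.40), Rpl10 (-0.39), Rpl11 (-0.42), Rpl39 (-0.67) and Rpl41 (-0.61) fell in the same fit. Of the relatives, Rpl22l1 (-0.56) and Rpl22 (-0.47) both fell, and Rps27l (-0.18 ± 0.10) and Rpl7l1 (-0.11 ± 0.08) did not pass. Rpl7l1 had 89.7, 87.4 and 86.5 CPM in the tdTomato-positive libraries, against 93.7, 94.5 and 78.9 CPM in the tdTomato-negative libraries. Rpl3l had 0 to 3 counts in each liver library.

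**Figure D5:**
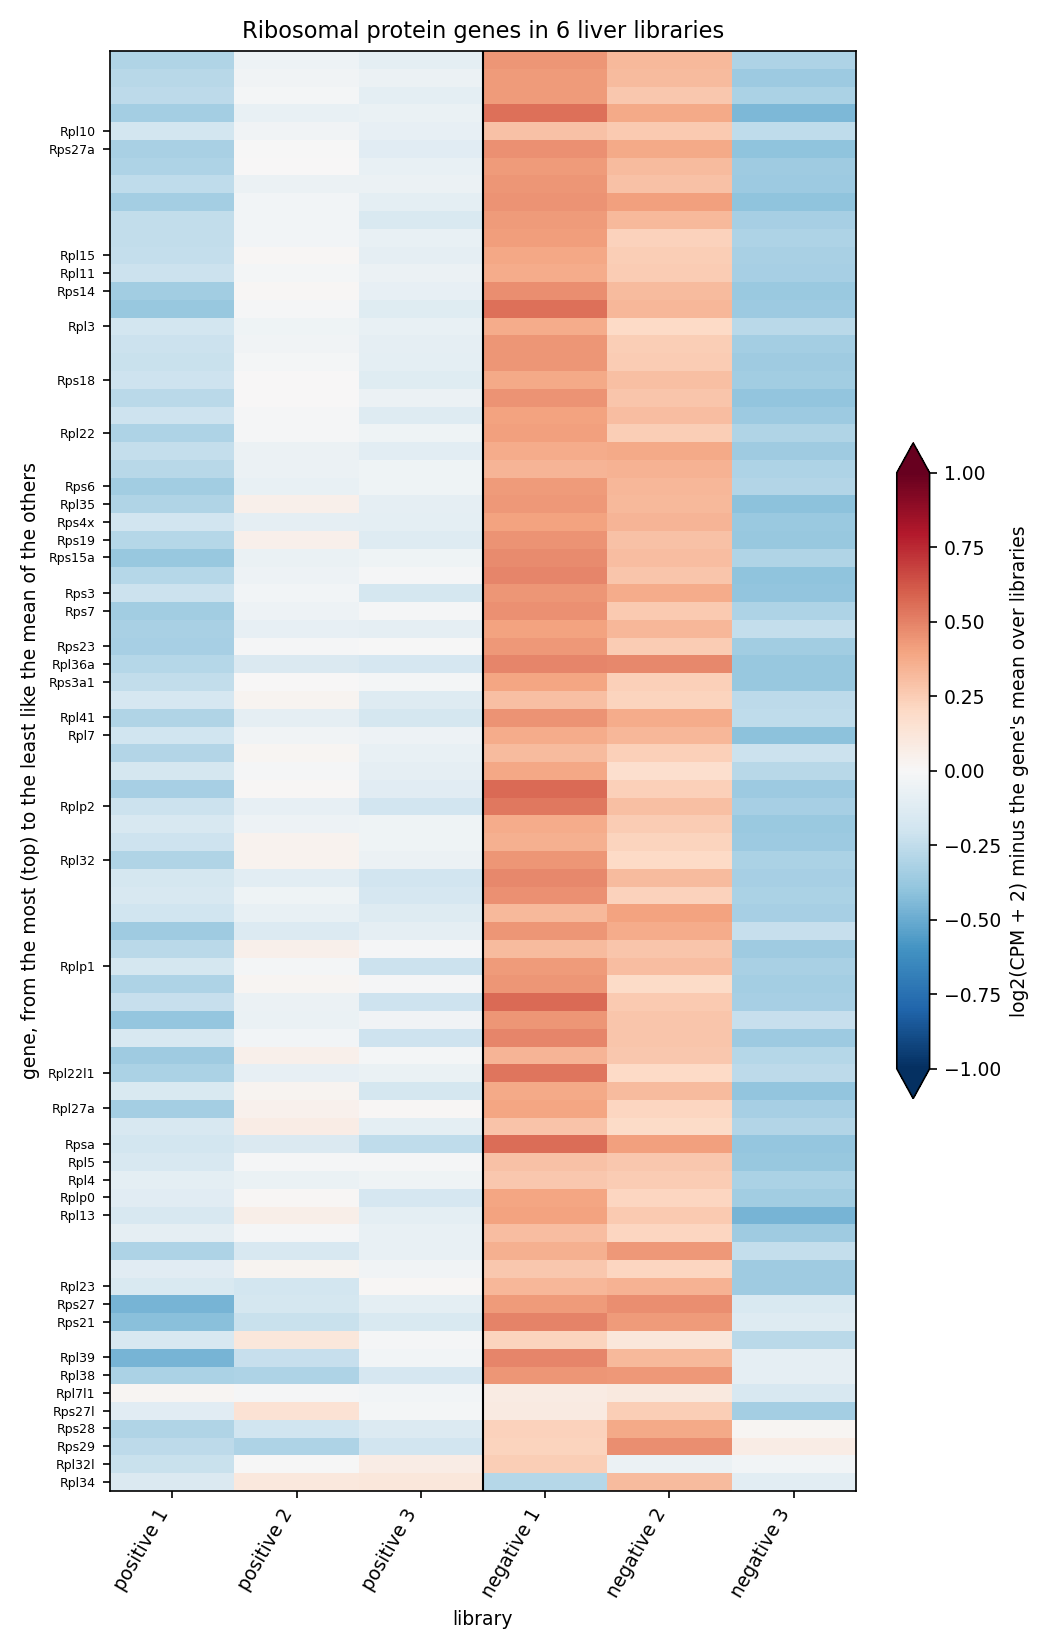
Log2(CPM + 2) of the 81 tested ribosomal protein genes (rows) in the 6 liver libraries (columns), minus each gene's mean over the libraries, with rows ordered from the gene most like the mean of the others to the least and genes named in the text labelled. Nearly all rows are highest in tdTomato-negative libraries 1 and 2, with negative library 3 and positive library 1 lowest, and Rpl34, in the last row, is lowest in negative library 1.

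Rpl34, a large-subunit gene, was the only tested member above 0 in liver with all 6 libraries, at 0.03 ± 0.19. It had 493, 586 and 589 CPM in the tdTomato-positive libraries, against 446, 681 and 508 CPM in the tdTomato-negative libraries. The row of its processed copy Rpl34-ps1 had 0, 0.0386 and 0 CPM in the tdTomato-positive libraries, against 256, 48.6 and 0 CPM in the tdTomato-negative libraries, so the 2 libraries with the most copy counts were negative 1 and negative 2. The sum of both rows was 493, 586 and 589 CPM in the positive libraries, against 702, 729.9 and 508 CPM in the negative libraries. In the sum, negative libraries 1 and 2 were above every positive library. The tables do not say how reads were shared between the gene and its copy, so the Rpl34 value is uncertain. In heart the copy stayed under 1 CPM in every library.

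Length classes were compared in liver as well. Without negative library 3, members under 500 bases had a median log2 fold change of -0.53 and 178 other genes of that length -0.23. At 500 to 1000 bases the medians were -0.44 in members and -0.09 in 652 other genes, and at 1000 to 2000 bases -0.46 in 11 members and 0.01 in 2157 other genes. With all 6 libraries they were -0.32 and -0.08 in the shortest class. Members therefore had the lower median in each class, a difference that was not tested. As in heart, the placing of members in the longer classes is uncertain. Over the 6 libraries the genes outside the family closest to it were Uqcrh of respiratory complex III (0.997), Fau (0.996), Gin1 (0.996), LOC105244208 (0.996) and the RNA-binding protein gene Ilf2 (0.994). These are the highest of 9022 other genes with at least 10 CPM, whose median was -0.088. The median member likeness was 0.980. A member was set beside the mean of the other members and an outside gene beside the mean of all, so highest values and this median are not like for like.

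Without negative library 3, genes of other parts of the translation system were called too, beside 31.5% of all genes called and 16.1% called lower. All 4 ribosomal protein genes outside the symbol rule fell (median -0.43), as did 9 of 18 translation factors (median -0.30), among them the elongation factor Eef1a1 (-0.53 ± 0.11, edgeR adjusted p 0.00788). Of 25 ribosome biogenesis genes 8 fell and 0 rose (median -0.29), led by the nucleolar protein gene Nop58 (-1.17 ± 0.11, 0.000252). Myc, the transcription factor known to drive ribosome production, had 13.2, 10.3 and 11.3 CPM in the tdTomato-positive libraries, against 137, 44.1 and 12.9 CPM in the tdTomato-negative libraries. Negative libraries 1 and 2 were far above the rest, and negative library 3 was within the positive range. Myc fell (-2.98 ± 0.55, 0.0229) in the fit without that library and did not pass with it (-2.48 ± 0.85, 0.301). In the mTORC1 and control list of 16 genes, 4 fell, Myc and its relative Mycn (-1.58 ± 0.38, 0.0155) among them, and 3 rose, with the S6 kinase gene Rps6kb2 (0.70 ± 0.11, 0.00275) and the translation repressor gene Eif4ebp2 (0.53 ± 0.10, 0.00667) highest. Mitochondrial ribosomal protein genes went both ways (5 higher and 8 lower of 78, median -0.02), and 8 of 26 oxidative phosphorylation genes fell (median -0.20).

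Markers of other cell types moved with the same libraries. In the fit without negative library 3, all 7 Kupffer cell genes (median log2 fold change 4.14), 11 of 12 leukocyte and macrophage genes (3.77), 5 of 6 erythrocyte genes (4.77) and 6 of 8 liver sinusoidal endothelial genes (0.97) were higher in the positive libraries. In the same fit 9 of 12 hepatocyte genes (-1.15), 5 of 8 fibroblast genes (-2.21) and 5 of 8 pericyte and smooth muscle genes (-3.07) were lower. These counts stand beside 31.5% of all genes called in either direction and 16.1% called lower. Adgre1 and Csf1r are on both the Kupffer cell list and the leukocyte and macrophage list. Genes of the hepatic stellate cell list went different ways. Reln had 3.79, 2.74 and 4.33 CPM in the positive libraries, against 9.25, 14.4 and 4.45 CPM in the negative ones. Lrat overlapped, at 5.84, 2.97 and 3.28 CPM against 1.93, 4.34 and 3.35 CPM. Other genes of that list are not reported here. Summed levels were 785 to 1561 CPM in tdTomato-positive against 42.2 to 4537 CPM in tdTomato-negative libraries for Kupffer cell genes, and 17021 to 18449 CPM against 7022 to 15345 CPM for sinusoidal genes. In both lists the highest negative value was that of negative library 3. No Kupffer or sinusoidal marker was at 0 in a liver library. Their part in the members' differences was not tested.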

How the data were processed

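Poly(A) RNA of heart and liver endothelial cells was copied from an oligo(dT) primer, amplified and read as paired 100 bp reads, per the labels' protocols. Per the submitters' processing notes the build was mm10; not given in the sources used here are the aligner, the counting program and the annotation. The authors' TPM columns, named so per the file headers, served for levels only. The deposited expected counts are the authors' estimates per gene, not normalized, and were rounded before tests. All 36 columns were matched by name, with 0 left over.

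Each whole table was fitted with edgeR 4.0.16 in R 4.3.3 (default low-count filter, TMM scaling, robust quasi-likelihood F tests, 1 mean per group), with Benjamini-Hochberg adjustment over all tested genes and a threshold of 0.05. CPM values are scaled by TMM; standard errors (SE) were derived from each fold change and its F statistic. Effective length is the ratio of counts to TPM, scaled on 650 heart and 675 liver genes with 1 annotated transcript of at least 1000 bases, for genes with 200 or more counts, which are 74.2% of tested genes in heart and 78.0% in liver and 81 and 80 members. Sequences and motif shares came from the RefSeq promoter table of GRCm38.p6.

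Members named are the 5 highest and 5 lowest by TPM, the 3 largest, 3 smallest and 3 smallest-p fold changes per comparison, those with a fixed role, close relatives, and the most and least alike over libraries; genes named from companion lists are among the extremes of their list. The members and all lists were chosen with earlier results of these data known. Fits of each pair alone, DESeq2 1.42.0, voom (limma 3.58.1) with sample weights, other scalings and filters, and omitted libraries were alternatives; the leave-outs of VS 1 and tdTomato-negative 3 were singled out after seeing the data. The workflow was tested on simulated data. Mitochondrially encoded genes were not analysed here, and values of some single genes are not reported here.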

Additional observations from a re-analysis of the deposited data

How the results depend on the processing

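With 3 libraries a group, 1 library decided most counts. In edgeR's fit of all libraries 0 members and 0.0% of genes were called in each of the 8 comparisons. The member count stayed 0 with size factors of the RLE kind, with TMM computed without the members and with no low-count filter. Those scalings moved the median of all genes by less than 0.1. Voom with sample weights called 75 members over the 4 regions, 55 for Apex against VS, 71 for Apex against OR, 7 for LV against OR and 18 in liver; DESeq2 called 3 in liver. The pair alone called 3 for Apex against LV, 63 for Apex against OR and 22 for LV against OR.

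Leaving out 1 library gave 0 to 73 members over the 4 regions, 0 to 67 for Apex against VS, 0 to 67 for Apex against OR, 0 to 26 for LV against VS, 0 to 31 for LV against OR and 0 to 75 in liver. The upper values came without VS 1 and without tdTomato-negative 3. In the same order, the shares of all genes called there were 10.8%, 11.7%, 6.25%, 4.45%, 2.72% and 31.5%. In the pairs alone the counts were 0 to 2 for Apex against LV, 0 to 51 for Apex against VS, 0 to 63 for Apex against OR (46 without Apex 1, 38 without OR 1) and 0 to 12 for LV against OR. Shares of all genes are not reported here for these leave-outs in the pairs, so their counts cannot be set against other genes. Median log2 fold changes ranged from -0.39 to 0.11 for LV against VS (0.034 without VS 3; -0.38 to 0.13, and 0.032, in the pair alone) and from -0.48 to 0.044 for VS against OR (-0.50 to 0.037), so both changed sign with the VS library left out. Among single members, those near 0 changed sign: Rpl7l1 for Apex against OR (-0.22 to 0.031, in the pair alone up to 0.030, with 0.00046 without OR 1), and in liver Rpl7l1 (-0.11 to 0.020), Rps27l (-0.18 to 0.11) and Rpl34 (-0.096 to 0.21). The cause was not tested. The median share of TPM was 10.7% in heart and 11.9% in liver.

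Libraries of different groups were compared by the deviations of genes from their group mean, not by whole profiles. Same-numbered libraries correlated in this way by a median of 0.03 in heart (-0.06 to 0.23), and differently numbered ones by -0.02 (-0.17 to 0.18). In liver the ranges were -0.21 to -0.01 for the same number and -0.15 to 0.21 for different numbers. These values cannot show whether libraries of the same number share an animal. With the replicate block 0 members were called in every comparison, and Rps27l in liver was at 0.0070.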

Other observations

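Rows for copies of members were mostly low beside their parent genes. Rpl31-ps12, a processed copy of the large-subunit gene Rpl31, had 13.4, 13.7 and 14.7 CPM in the Apex libraries, 4.63, 7.52 and 11.5 CPM in LV, 6.31, 10.6 and 11.4 CPM in the VS libraries and 11.7, 9.12 and 11.03 CPM in OR. In liver it had 5.48, 18.9 and 24.7 CPM in the tdTomato-positive libraries, against 16.2, 29.2 and 15.2 CPM in the tdTomato-negative libraries. Rps27rt, a retrogene of Rps27, had 10.3, 12.3 and 13.9 CPM in the tdTomato-positive libraries, against 15.4, 20.6 and 13.8 CPM in the tdTomato-negative libraries, and Rpl37rt, a retrogene of Rpl37, had 2.54, 3.55 and 5.15 CPM in the tdTomato-positive libraries, against 6.27, 6.06 and 4.09 CPM in the tdTomato-negative libraries. All 3 had counts that were not whole in every library.

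Members with 1 protein-coding gene of that symbol in GENCODE M21 numbered 82 of 83, Rpl32l not among them, and lay on 19 chromosomes, with 14 on chromosome 7. In heart, Myc had 9.91, 25.9 and 50.2 CPM in the Apex libraries, 25.2, 35.9 and 29.9 CPM in LV, 27.3, 13.7 and 16.1 CPM in the VS libraries and 19.9, 33.6 and 24.1 CPM in OR, and its lowest and highest libraries were both of Apex. Nop58 had 31.8, 49.9 and 92.7 CPM in the Apex libraries, 37.6, 33.5 and 45.8 CPM in LV, 58.4, 23.8 and 33.2 CPM in the VS libraries and 32.1, 44.7 and 44.5 CPM in OR, and Apex held its highest library.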
